A study of Mus musculus with 8 samples.

Results

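The solute carriers are membrane proteins that move ions, metals, sugars, amino acids, nucleotides, vitamins and other small molecules into cells or between compartments. Transcripts of 258 genes whose symbol begins with Slc and a family number were followed in mouse spermatids, out of 16349 genes in the deposited table. The table holds 284 such rows. Of these, 3 (Slc2a3, Slc9c1 and Slc9b1) were left out by name, and 23 did not reach a normalised read count of 10 in at least 2 of the 8 libraries. The second highest value was 9.68 for Slc17a2, 9.54 for Slc51a and 8.91 for Slc18a1 just below this minimum, and 10.1 for Slc16a4, 10.3 for Slc46a3 and 10.8 for Slc35g2 just above it. The minimum was reached in 1 group alone by 10 of the 258 genes. The symbol takes in 5 genes that encode no carrier: Slc9a3r1 and Slc9a3r2, adaptor proteins of sodium/hydrogen exchangers, Slc4a1ap, an adaptor named for an anion exchanger, and Slc36a1os and Slc7a6os, named as opposite-strand genes. These 5 remain in the counts. Role groups below were set by the family number alone, so a group can hold genes that do not carry the solute it is named for.

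RNA came from round spermatids, the early haploid male germ cells, and from elongating spermatids, later cells that compact the nucleus and build the tail. All cells were purified from testes of C57BL/6 mice by centrifugal elutriation, with 8 testes for each sample and no treatment. At each stage 2 libraries were labelled wild type (WT) and 2 were labelled as a conditional knockout of Carm1, the gene of an arginine methyltransferase that works as a transcriptional coactivator. The labels give neither the Cre driver nor the age of the mice, and nothing in them states that the 2 libraries of one group had different mice as their source. The p-values then reflect library-to-library spread alone, which may be technical. The libraries of all groups were made from poly(A) RNA with a kit that does not mark strand.

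A spermatid depends on carriers at several places. Monocarboxylate and hexose transporters of the plasma membrane bring in lactate and sugars, carriers of the inner mitochondrial membrane exchange ATP, phosphate and metabolites with the cytosol, and anion and proton exchangers set the ion and pH balance of the acrosome and the tail. Loss of the testis ADP/ATP carrier Slc25a31, of the anion transporter Slc26a8, of Slc22a14 or of the sodium/hydrogen exchanger Slc9a8 makes male mice infertile.

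The title of the study names CREM, a transcription factor of spermatids that binds the cAMP response element TGACGTCA and shorter forms of it. RefSeq promoter windows of GRCm38.p6, from 250 bases before to 50 after a transcription start, were matched for 201 of the 258 genes, with 264 windows in all. The full palindrome TGACGTCA, which reads the same on both strands, stood in 4 of these windows (1.52%), compared with 588 of the 32851 windows of all genes (1.79%). The shorter TGACG on either strand, which every full palindrome contains, stood in 65 (24.6%) and in 6837 (20.8%). The palindrome lay 150 bases upstream of the start of Slc25a25, 161 upstream in Slc25a36, 121 in Slc38a6 and 4 in Slc18a2. The sequences that follow are the upstream sequence of Slc25a25, the one of these 4 genes that passed the test in either stage, and those of Slc26a10 and Slc41a3, which led the rises and the falls past the test at both stages. Annotated exons were trimmed off, capitals mark the palindrome, and Slc41a3 has several listed starts of which 1 is shown. The windows are chr2:32424067-32424316, chr10:127180706-127180832 and chr6:90618996-90619146 on GRCm38.p6, on the minus, minus and plus strand.
Slc25a25: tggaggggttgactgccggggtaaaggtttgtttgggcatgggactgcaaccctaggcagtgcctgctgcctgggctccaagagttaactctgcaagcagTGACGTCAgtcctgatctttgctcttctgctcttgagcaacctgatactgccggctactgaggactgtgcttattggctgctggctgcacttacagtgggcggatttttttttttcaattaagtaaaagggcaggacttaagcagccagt
Slc26a10: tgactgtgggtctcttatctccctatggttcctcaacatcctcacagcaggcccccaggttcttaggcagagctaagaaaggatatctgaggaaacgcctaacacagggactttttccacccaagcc
Slc41a3: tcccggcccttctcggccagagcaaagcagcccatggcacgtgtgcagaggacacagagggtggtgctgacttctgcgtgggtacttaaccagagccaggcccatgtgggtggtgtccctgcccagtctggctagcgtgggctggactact
Neither TGACGTCA nor TGACG occurred in the windows shown for Slc26a10 and Slc41a3. The Slc41a3 window lies inside the annotated span of the gene, at an internal start. The sequence at its outermost start is not shown, so whether a motif stands there is not known from this window. Slc25a25, a calcium-regulated ATP-magnesium/phosphate carrier of mitochondria, did not pass the test in round spermatids (log2 fold change 0.02, adjusted p = 0.89) and fell in elongating spermatids (-0.29, adjusted p = 0.0012).

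Recovered reads ranged from 17190962 to 23526694 per library. Solute carriers made up 0.79% to 0.80% of the reads of WT and 0.77% of the reads of knockout-labelled (KO-labelled) round spermatids, and 0.38% to 0.39% and 0.28% to 0.29% in the elongating ones. Carm1 itself measured 1668 ± 26.2 (SD, n = 2) in round WT cells and 1259 ± 119 with the knockout label (log2 fold change -0.41, adjusted p = 3.8e-05). In elongating cells it went up with the knockout label, from 4421 ± 159 to 8075 ± 116 (log2 fold change 0.87, adjusted p = 2.7e-09). With total-read scaling that log2 fold change was 0.31. The libraries are therefore called KO-labelled, and directions given for elongating cells depend on a label that the level of Carm1 goes against. The labels do not give the deleted exons, and reads from other exons would still be counted. All 9 markers of late spermatids rose with stage in WT and rose again in the elongating KO-labelled libraries, and 6 of them rose in the round ones. With total-read scaling 8 rose in the elongating libraries, and 3 rose and 1 fell in the round ones. For this and the next lists, 41.7% of all genes rose and 40.2% fell with stage. In KO-labelled libraries 19.4% of all genes rose and 12.6% fell in round cells, and 27.3% and 27.7% in elongating cells. Of 7 markers of acrosome-phase spermatids, 5 rose in round and 5 fell in elongating KO-labelled cells, and 1 rose there (3 and 7, and 0 rose in elongating cells, with total-read scaling). Spermatocyte markers fell in 6 of 9 and rose in 1 of 9 at both stages. Spermatogonium markers rose in 3 of 8 in round, and fell in 4 and rose in 1 in elongating cells. The 12 measured Sertoli cell markers summed to 342 to 349 (WT) and 203 to 212 (KO-labelled) in round cells, then 7290 to 7331 (WT) and 4988 to 5069 (KO-labelled) in elongating cells. The sums for 12 macrophage markers were 252 to 278, 1202 to 1206, 9928 to 9977 and 4977 to 5093 in the same order. In round cells 6 of these 12 passed as higher, and the median log2 fold change of the 12 was 0.80. Of the defining markers of both cell types, Fshr was at 0 reads in round KO-labelled libraries and no other was at 0 in any group. Markers of peritubular and vascular cells (9 genes) summed to 349 to 367 (WT) and 469 to 491 (KO-labelled) in round cells. In elongating cells they summed to 2524 to 2626 and 4360 to 4385, and 4 of the 9 rose and 2 fell. The 4 measured Leydig cell markers summed to 10.8 to 13.3 and 17.2 to 20.3 in round WT and KO-labelled cells. In elongating cells they summed to 60.6 to 79.9 and 130 to 153, and 1 rose. The part of all these marker lists in the results below was not tested. In bulk RNA, fewer cells of a type and less RNA per cell cannot be told apart.

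In WT cells the solute carriers were mostly genes of low abundance. Their median level was a normalised read count of 56.1 in round and 71.3 in elongating WT libraries, compared with 121 and 114 over all 15685 genes tested. In round WT libraries 58 genes averaged under 10, 100 between 10 and 100, 83 between 100 and 1000, and 17 at 1000 or more. Per kb of exon, the highest levels in round WT belonged to Slc2a5 (3694), the fructose transporter GLUT5, Slc25a39 (2534), which brings glutathione into mitochondria, Slc22a14 (1987), a riboflavin transporter of mouse sperm, Slc35g3 (1195) and the carnitine transporter gene Slc22a16 (1154). In elongating WT they belonged to Slc25a39 (11743), Slc2a5 (2177), the zinc exporter gene Slc30a4 (1542), Slc41a3 (1207), of a family of magnesium transporters, and Slc22a14 (1090).

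The stages were compared in WT cells, in libraries that the knockout comparisons also use as their controls. Of the 258 genes, 110 rose and 83 fell from round to elongating spermatids (42.6% and 32.2%) at an adjusted p under 0.05 (limma on log2 of the normalised read count plus 1, Benjamini-Hochberg over all genes tested, two-sided), compared with 41.7% and 40.2% of all genes tested, or 81.9% in either direction. Over 2-fold, 80 rose and 48 fell, while 30.9% and 25.1% of all genes did. The median log2 difference was 0.23, compared with 0.01 over all genes. Slc30a4 measured 680 and 660 in round WT and 8533 and 8371 in elongating WT libraries (log2 difference 3.65, adjusted p = 7.9e-19). Slc25a39 went from 7136 and 6834 to 32387 and 32342 (2.21, adjusted p = 1.9e-16). Both genes were several times higher in each elongating library than in any round one. Slc25a4, the ADP/ATP carrier of muscle and heart, rose from 21.2 ± 5.14 to 313 ± 10.8 and Slc25a5, its widely expressed paralog, from 24.3 ± 5.25 to 170 ± 0.908, while the germ-cell carrier Slc25a31 fell from 261 ± 0.431 to 63.9 ± 2.64. A near-identical copy elsewhere in the genome covers 71.5% of the Slc25a5 transcript, so its reads are uncertain.

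Among members whose higher group mean was at least 50 and whose libraries did not overlap, the 5 largest rises were in genes that were low in round cells. Slc7a4, whose exons overlap P2rx6, went from 12.1 ± 0.867 to 378 ± 36.7, Slc38a5, a glutamine transporter gene, from 2.51 ± 1.84 to 76.4 ± 4.12, and Slc27a6, of the fatty acid transport family, from 1.85 ± 0.812 to 63.0 ± 7.53. Slc18a3, the vesicular acetylcholine transporter gene, went from 12.4 ± 1.32 to 278 ± 19.1 and Slc10a6, which carries sulfated steroids, from 3.45 ± 2.32 to 80.1 ± 5.21. In the same comparison all 12 Sertoli and all 12 macrophage markers rose, and their part in these rises was not tested. By the same rule the 5 largest falls were in Slc10a3 (101 ± 9.72 to 20.3 ± 4.17), Slc25a54 (325 ± 3.01 to 70.2 ± 15.6), Slc25a31, Slc25a42, a coenzyme A carrier (65.3 ± 8.45 to 17.3 ± 8.11), and Slc25a2, an ornithine carrier (495 ± 20.1 to 135 ± 4.91). With scaling by total reads, 51 solute carriers rose and 170 fell with stage (19.8% and 65.9%), beside 19.6% and 68.8% of all genes. The median of all genes then shifted to -1.42 and that of the solute carriers to -1.19.

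**Figure D1:**
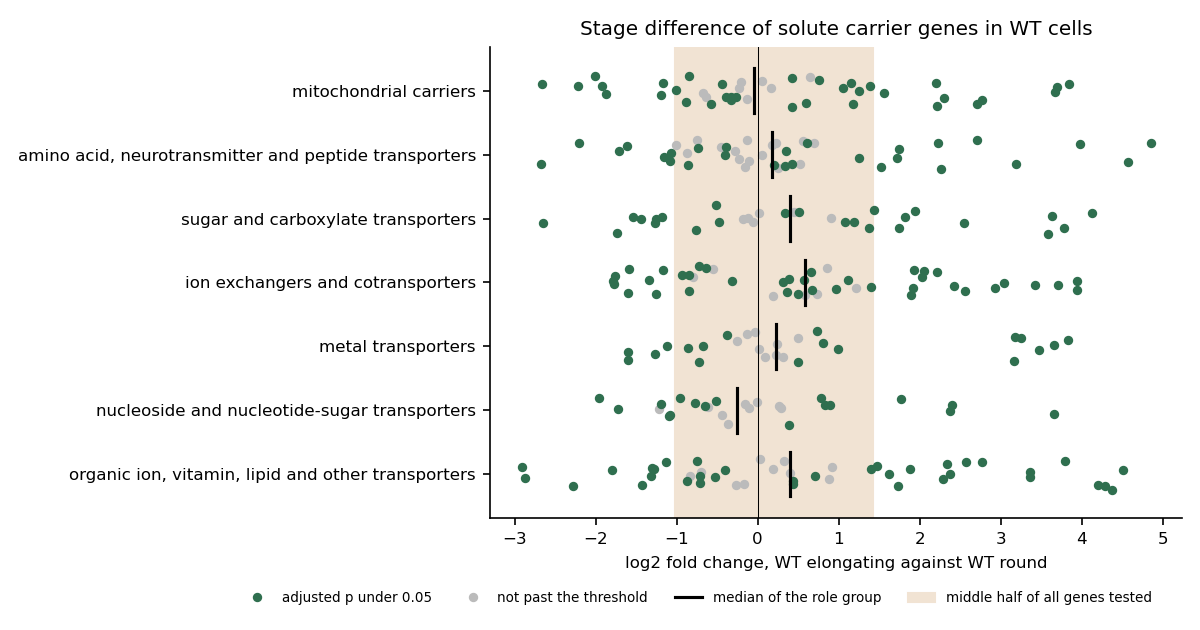
Log2 fold change from WT round to WT elongating spermatids for each solute carrier gene, by role group set from the family number. Each point is a gene, the black bar is the median of the role group and the band spans the middle of all genes tested. The medians lie between -0.26 (nucleoside and nucleotide-sugar transporters) and 0.58 (ion exchangers and cotransporters), inside the band.

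The main question of the design was which genes differ between KO-labelled and WT cells at each stage. In round spermatids 35 solute carriers rose and 35 fell in KO-labelled libraries (13.6% each), compared with 19.4% and 12.6% of all genes. Of these, 5 rose and 11 fell by over 2-fold, as did 3.14% and 2.79% of all genes. The median log2 fold change was -0.003, compared with 0.03 over all genes. In elongating spermatids 43 rose and 74 fell (16.7% and 28.7%), compared with 27.3% and 27.7%, and 55% of all genes passed in either direction. Over 2-fold, 16 rose and 17 fell, beside 6.08% and 6.68% of all genes. The median there was -0.11, compared with -0.07. Of the 10 genes that reached the minimum in 1 group alone, 5 did so in elongating KO-labelled and 2 in elongating WT libraries. In round cells 2 did so in KO-labelled and 1 in WT libraries. These genes remain in the counts, although the minimum itself favours a higher value in that group. The same minimum applied to all genes tested. edgeR's quasi-likelihood test on recovered reads called 32 of the 35 rises and all 35 falls in round cells, and 35 of the 43 rises and 61 of the 74 falls in elongating cells. DESeq2 called 27, 26, 28 and 38 of them. In all, edgeR called 50 rises and 48 falls in round cells (19.4% and 18.6%), beside 26.5% and 20.2% of all genes. In elongating cells it called 38 and 67 (14.7% and 26%), beside 25.6% and 26.2%. DESeq2 called 28 and 26 in round cells (10.9% and 10.1%), beside 17.5% and 10.9% of all genes. Its elongating calls were 28 and 38 (10.9% and 14.7%), beside 23.3% and 17.6%. Leaving out 1 round library at a time changed the counts by over 1.5 times in round cells: 17 rose without WT library 2 or KO-labelled library 2 and 23 without WT library 1, while 20 fell without WT library 1, 21 without WT library 2 and 22 without KO-labelled library 1. The split depended on the scaling of the libraries. Scaled by total reads, 23 rose and 43 fell in round cells, and 8 rose and 154 fell in elongating cells. Of all genes, 14% rose and 19.5% fell in round and 8.89% rose and 62.8% fell in elongating cells with that scaling. All genes shifted with them, to a median of -0.61 in elongating cells, beside -0.65 for the solute carriers.

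**Figure D2:**
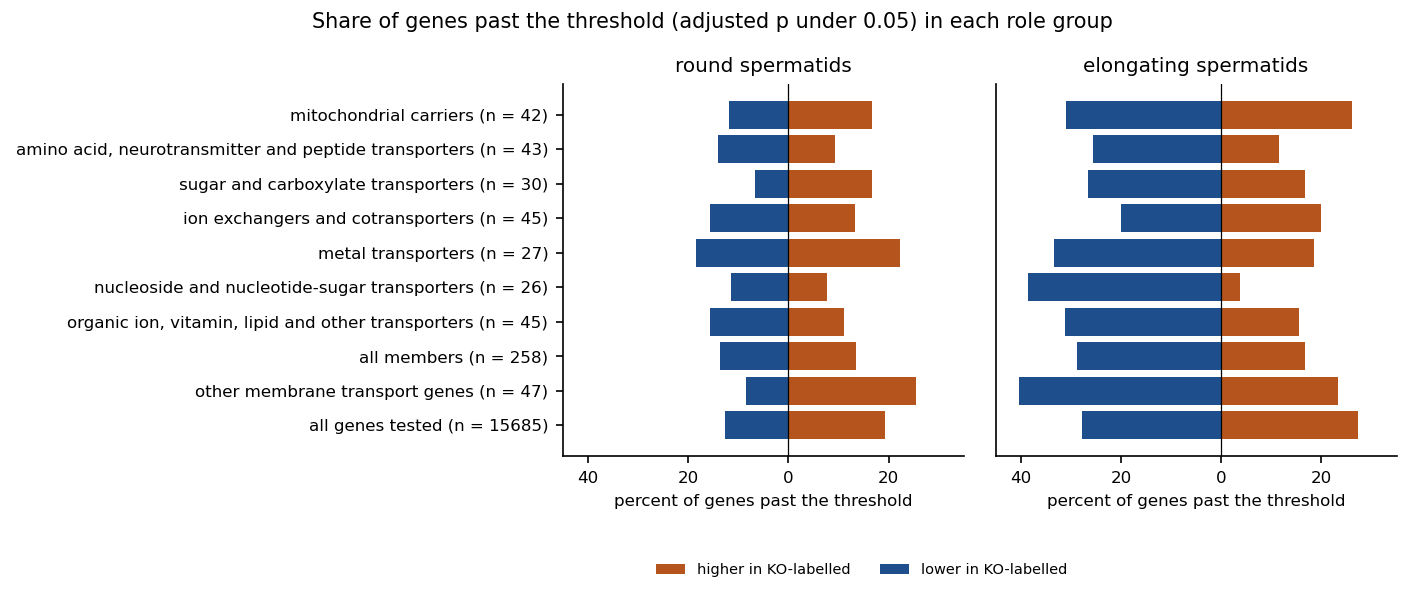
Percent of genes past an adjusted p of 0.05 in each role group, in round and elongating spermatids, with the same share for 47 other membrane transport genes and for all 15685 genes tested. Bars to the right are genes higher and bars to the left genes lower in KO-labelled libraries. In elongating cells 38.5% of the nucleoside and nucleotide-sugar transporters lay to the left and 3.85% to the right.

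The largest rise at both stages was that of Slc26a10 (chr10:127171393-127180645, minus strand, GRCm38), a member of the SLC26 family of anion exchangers. It measured 3.18 and 10.9 in WT and 128 and 114 in KO-labelled round spermatids, and 12.9 and 15.9 in WT and 694 and 714 in KO-labelled elongating spermatids. All 4 KO-labelled libraries were above all 4 WT libraries. The log2 fold changes were 4.11 (SE 0.34, adjusted p = 5.1e-07) in round and 5.53 (SE 0.34, adjusted p = 2.8e-09) in elongating cells, and both calls held in every alternative tried. Its exons overlap those of B4galnt1, a ganglioside synthase gene, so without strand their reads cannot be told apart. B4galnt1 lay between 216 and 269 in round and between 303 and 356 in elongating libraries and did not pass the test (adjusted p = 0.13 and 0.94). Within 500 kb, a window chosen after the values were seen, 28 other genes were tested. Of these, 6 rose and 4 fell in round cells, beside 19.4% and 12.6% of all genes. In elongating cells 10 rose and 5 fell, beside 27.3% and 27.7%.

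The largest fall past the test at both stages was that of Slc41a3 (chr6:90604725-90646412, plus strand). It measured 2508 and 2448 (WT) and 656 and 712 (KO-labelled) in round cells, then 3506 and 3519 (WT) and 246 and 219 (KO-labelled) in elongating cells. Every KO-labelled library was under every WT library. The log2 fold change was -1.86 (SE 0.06, adjusted p = 3.2e-11) in round and -3.91 (SE 0.06, adjusted p = 4e-15) in elongating cells, and the difference between the stages was -2.06 (adjusted p = 1.2e-09). The nearest tested gene, Aldh1l1, a folate enzyme gene 4522 bases away, went from 898 to 11.2 in round and from 1616 to 124 in elongating cells (log2 -6.21 and -3.71). Iqsec1, 9676 bases away on the other side, measured 1299 and 1501 in round and 1875 and 1978 in elongating WT and KO-labelled libraries (log2 0.21, adjusted p = 0.012, and 0.08, adjusted p = 0.27).

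**Figure D3:**
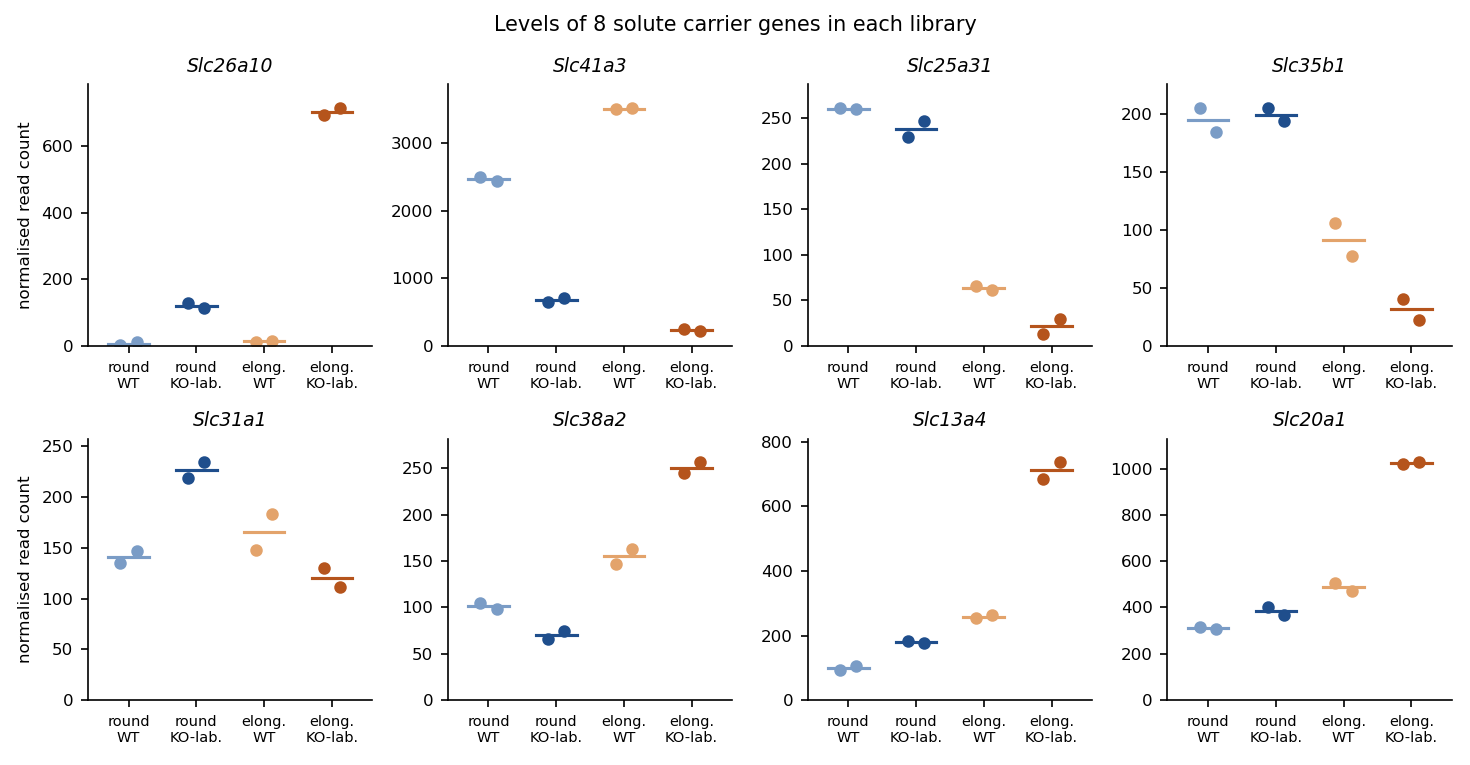
Normalised read count of 8 solute carrier genes in each library (points) with the group mean (bar), for round and elongating WT and KO-labelled (KO-lab.) spermatids. Slc26a10 lies between 3.18 and 15.9 in WT and between 114 and 714 in KO-labelled libraries. Slc31a1 and Slc38a2 move in opposite directions at the 2 stages.

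Among 42 mitochondrial carriers (SLC25), 7 rose and 5 fell in round and 11 rose and 13 fell in elongating KO-labelled cells. These are 16.7% and 11.9% in round and 26.2% and 31% in elongating cells, near the 19.4% and 12.6%, and 27.3% and 27.7%, of all genes. Scaled by total reads, 1 rose and 32 fell in elongating cells (2.38% and 76.2%), beside 8.89% and 62.8% of all genes. Slc25a31, the ADP/ATP carrier of germ cells, measured 261 and 260 in WT and 229 and 247 in KO-labelled round spermatids, and 65.7 and 62.0 in WT and 13.6 and 30.2 in KO-labelled elongating spermatids. The round groups lay close together and the elongating groups did not overlap. It fell in elongating cells (log2 fold change -1.61, SE 0.25, adjusted p = 6.2e-05) and did not pass in round cells (-0.13, adjusted p = 0.74), and the difference between these effects passed (-1.47, adjusted p = 0.0038). Slc25a54 fell likewise in elongating cells, from 81.2 and 59.1 to 31 and 35.8 (-1.03, adjusted p = 3.9e-05), and the phosphate carrier gene Slc25a3 fell from 528 ± 12 to 356 ± 48.3 (-0.57, adjusted p = 3.2e-05).

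Other mitochondrial carriers rose. Slc25a47, a carrier gene best known from liver, measured 52.9 and 54.8 in WT and 161 and 145 in KO-labelled elongating cells (log2 fold change 1.49, adjusted p = 3.9e-05). In round cells it did not pass (0.19, adjusted p = 0.57). Slc25a44, a carrier of branched-chain amino acids, rose in round cells from 121 and 111 to 198 and 208 (0.80, adjusted p = 0.00035) and measured 91.7 ± 5.25 and 91.7 ± 11.7 in elongating cells. The difference between its effects was -0.81 (adjusted p = 0.0037). Slc25a39 rose at both stages (0.17 and 0.39), but in round cells not without WT library 2 (adjusted p = 0.065) or with total-read scaling (0.11). With total-read scaling its elongating value turned to -0.17. Slc25a11, the oxoglutarate/malate carrier, which shares exons with Rnf167, had log2 fold changes of 0.70 and 0.62. Its round call was lost without WT library 2 or KO-labelled library 2 (adjusted p = 0.062 and 0.089) and its elongating call without WT library 2 (0.064) or with total-read scaling (0.75). Slc25a4 fell by 1.01 in round and by 0.56 in elongating cells on the log2 scale. The latter call was lost without any 1 of the 4 elongating libraries (adjusted p from 0.052 to 0.11). Slc25a23, an ATP-magnesium/phosphate carrier, fell in round cells from 73.2 and 62.3 to 40.1 and 34.9 (-0.84, adjusted p = 0.0042) and in elongating cells from 125 and 159 to 98.9 and 71.6 (-0.74, adjusted p = 0.0052). These calls were lost without round WT library 1 (0.058) and without elongating WT library 2 (0.072).

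The group of amino acid, neurotransmitter and peptide transporters held 43 genes, Slc36a1os and Slc7a6os among them. Of these, 4 rose and 6 fell in round and 5 rose and 11 fell in elongating cells. In elongating cells that is 11.6% and 25.6%, beside 27.3% and 27.7% of all genes, and in round cells 9.30% and 14%, beside 19.4% and 12.6%. With total-read scaling 0 rose and 26 fell in elongating cells (60.5%), beside 8.89% and 62.8% of all genes. Slc38a2, the sodium-coupled neutral amino acid transporter SNAT2, measured 104 and 98.7 (WT) and 66.1 and 74.9 (KO-labelled) in round cells, then 147 and 163 (WT) and 244 and 256 (KO-labelled) in elongating cells. It was lower in both round and higher in both elongating KO-labelled libraries than in WT. The log2 fold changes were -0.52 (adjusted p = 0.0051) and 0.69 (adjusted p = 0.00027), and the difference of 1.21 passed (adjusted p = 6.7e-05). The round call was lost without WT library 1 (adjusted p = 0.052) or KO-labelled library 1 (0.057), and the elongating one with total-read scaling (0.37).

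The glutamine transporter gene Slc1a5 (ASCT2) fell in round cells from 144 and 125 to 50.2 and 50.7 (log2 fold change -1.39, adjusted p = 4.9e-06). It fell less in elongating cells, from 121 ± 0.878 to 89.0 ± 8.54 (-0.44, adjusted p = 0.021, lost without WT library 1 or 2 or KO-labelled library 2 at 0.060, 0.069 and 0.088), and the effects differed by 0.96 (adjusted p = 0.0020, or 0.054 with total-read scaling). Slc7a11, the cystine/glutamate exchanger xCT, fell in round cells from 28 and 28.4 to 8.27 and 11.8 (-1.42, adjusted p = 0.00017). Slc6a6, the taurine transporter, was among the more abundant members, at 2764 ± 35.7 in round and 845 ± 34.2 in elongating WT libraries. In elongating KO-labelled libraries it fell to 487 and 473 (-0.81, adjusted p = 2e-09), below both WT libraries. In round cells it rose by 0.16, a call lost without WT library 1 or 2 or KO-labelled library 2 (adjusted p = 0.15, 0.092 and 0.16) and with total-read scaling (0.31). Slc7a5 and Slc3a2, the chains of the LAT1 amino acid exchanger, both fell in elongating cells (-0.44 and -0.40). Among low genes, Slc7a2 rose in elongating cells from 38.7 and 40.4 to 69.8 and 106 (1.1, adjusted p = 0.0012, or 0.054 with total-read scaling) and the GABA transporter gene Slc6a11 from 37.4 and 17.3 to 48.5 and 66.0 (1.12, adjusted p = 0.0074, lost without WT library 2 or KO-labelled library 2 at 0.11 and 0.052 and with total-read scaling at 0.12).

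Of 30 sugar and carboxylate transporters, 5 rose and 2 fell in round (16.7% and 6.67%, beside 19.4% and 12.6% of all genes) and 5 rose and 8 fell in elongating cells (16.7% and 26.7%, beside 27.3% and 27.7%). Under total-read scaling 3 rose and 13 fell in elongating cells (43.3% fell, beside 62.8% of all genes). Slc13a4, a sodium-sulfate cotransporter gene, measured 94.2 and 105 in WT and 184 and 177 in KO-labelled round spermatids, and 255 and 262 in WT and 687 and 737 in KO-labelled elongating spermatids. Each KO-labelled pair was above its WT pair. It rose by 0.86 (adjusted p = 6.4e-06) and 1.46 (adjusted p = 4.2e-09). The citrate transporter gene Slc13a5 rose in round cells from 435 ± 17.6 to 629 ± 34.1 (0.53, adjusted p = 0.00015). Slc16a6, a monocarboxylate transporter family gene, fell from 43.9 and 52.1 to 15.3 and 21.4 in round cells (-1.35, adjusted p = 0.0010).

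The abundant lactate and fructose transporters of spermatids differed little between WT and KO-labelled libraries. Slc16a7, the monocarboxylate transporter MCT2, measured 7045 and 6949 in WT and 7770 and 7684 in KO-labelled round cells (log2 fold change 0.14, adjusted p = 0.0030), and 8861 ± 103 and 8625 ± 257 in elongating cells (-0.04, adjusted p = 0.31). The round groups did not overlap, and the call was lost with total-read scaling (adjusted p = 0.17). Slc2a5 measured 12640 and 12495 in WT and 12587 and 11975 in KO-labelled round cells (-0.03, adjusted p = 0.47). In elongating cells it fell from 7407 ± 41.6 to 6987 ± 101 (-0.08, adjusted p = 0.037), a call lost without elongating WT library 1 (0.10), WT library 2 (0.15) or KO-labelled library 1 (0.15), without either round WT library (0.058) and with the replicate block (0.055). Slc2a8 (GLUT8), a hexose transporter known from testis, did not pass at either stage (0.23 and -0.21, adjusted p = 0.28 and 0.26). Slc16a1 (MCT1) rose in elongating cells from 137 and 140 to 273 and 239 (0.88, adjusted p = 3.6e-05). In round cells it did not pass (-0.02, adjusted p = 0.95), and the effects differed by 0.90 (adjusted p = 0.0012, or 0.062 with total-read scaling). Slc16a3 (MCT4) was at 1.24 ± 0.0439 in round and 12.7 ± 5.73 in elongating WT libraries and passed at neither stage.

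**Figure D4:**
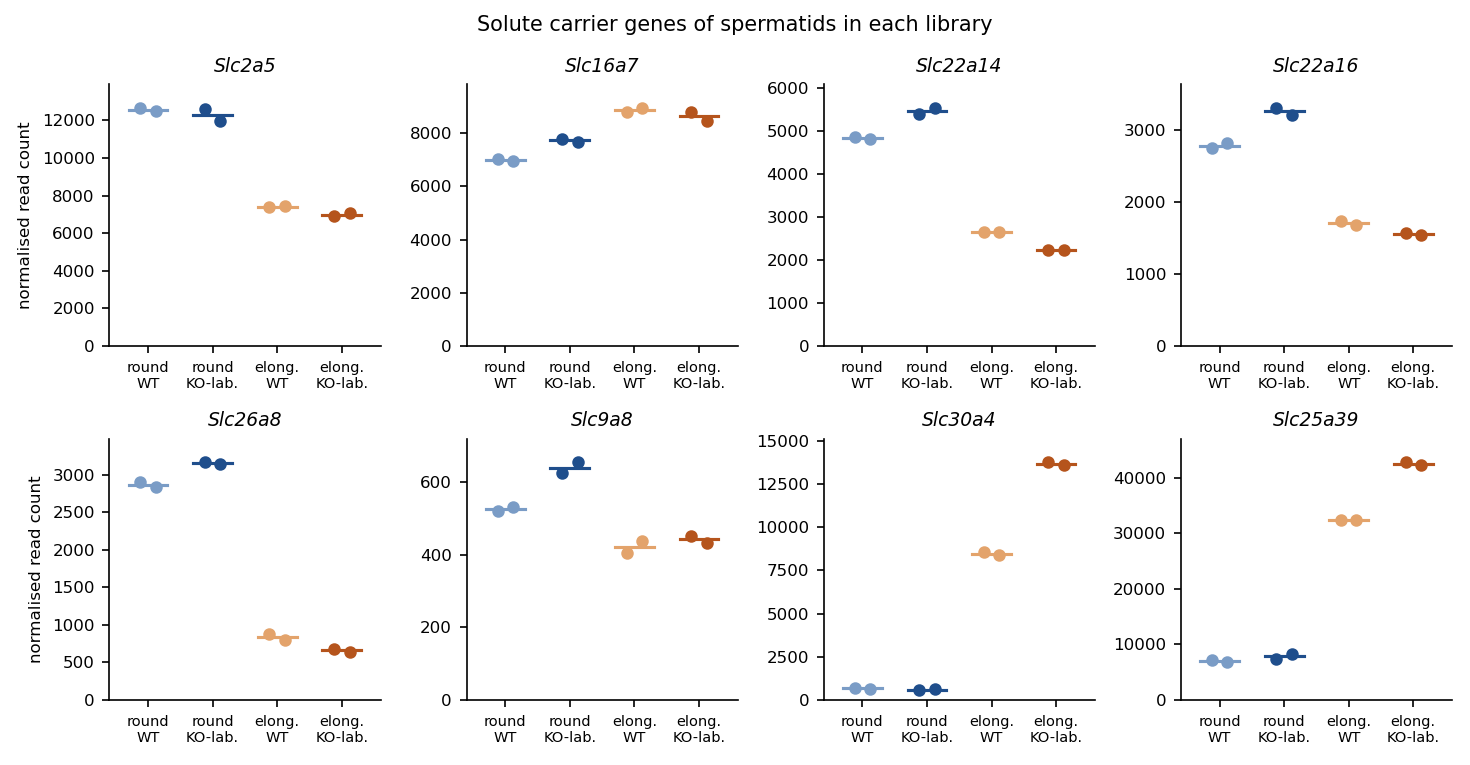
Normalised read count of 8 solute carrier genes of spermatids in each library (points) with the group mean (bar). Slc2a5, Slc22a14, Slc22a16 and Slc26a8 are lower in elongating than in round libraries, and Slc30a4 and Slc25a39 are higher. In KO-labelled elongating libraries Slc30a4 reached 13746 and 13562, above 8533 and 8371 in WT.

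The group of ion exchangers and cotransporters held 45 genes, with the adaptor genes Slc9a3r1, Slc9a3r2 and Slc4a1ap among them. Of these, 6 rose and 7 fell in round cells and 9 rose and 9 fell in elongating cells. The shares were 13.3% and 15.6% in round and 20% each in elongating cells, beside 19.4% and 12.6%, and 27.3% and 27.7%, of all genes. With total-read scaling 2 rose and 17 fell in elongating cells (37.8% fell, beside 62.8% of all genes). Slc20a1, the phosphate transporter PiT1, measured 314 and 306 (WT) and 404 and 366 (KO-labelled) in round cells, then 504 and 473 (WT) and 1018 and 1027 (KO-labelled) in elongating cells. Each KO-labelled pair was above its WT pair, and the rise was larger in elongating cells (log2 fold change 1.07, adjusted p = 6.2e-09) than in round cells (0.31, adjusted p = 0.0033). The difference was 0.75 (adjusted p = 2.5e-05). The round call was lost without KO-labelled library 1 (adjusted p = 0.052). Slc26a8, the testis anion transporter of the sperm tail, was at 2907 and 2831 in WT and 3165 and 3137 in KO-labelled round cells (0.14, adjusted p = 0.064). In elongating cells it fell from 879 and 803 to 685 and 643 (-0.34, adjusted p = 6.3e-05), and the effects differed by -0.48 (adjusted p = 0.00013).

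Slc8a2, a sodium/calcium exchanger gene, fell at both stages, from 890 ± 15.5 to 583 ± 12.6 in round and from 1748 ± 30.6 to 1307 ± 23.8 in elongating cells (-0.61 and -0.42). The potassium-chloride cotransporter gene Slc12a7 also fell at both (-0.37 and -0.43, adjusted p = 0.0025 and 0.00033). Slc9a5, a sodium/hydrogen exchanger gene, fell in round cells from 383 and 390 to 263 and 280 (-0.51, adjusted p = 0.0011). Its log2 fold change in elongating cells was 0.62, and the difference of 1.13 between the effects passed in every alternative. Slc9a8, the sodium/hydrogen exchanger needed for acrosome formation, rose in round cells from 526 ± 9.07 to 639 ± 21.9 (0.28, adjusted p = 0.0056), a call lost without WT library 1 (0.059) or KO-labelled library 2 (0.063), and did not pass in elongating cells (0.07, adjusted p = 0.38), where the sign turned with total-read scaling (-0.49). Slc26a6 passed at neither stage (adjusted p = 0.97 at both). Slc12a2, the sodium-potassium-chloride cotransporter NKCC1, rose in elongating cells from 62.7 ± 15.3 to 91.8 ± 4.54 (0.56, adjusted p = 0.0072), a call lost without WT library 2 (0.10) and with total-read scaling (0.97).

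Of 27 metal transporters, 6 rose and 5 fell in round (22.2% and 18.5%, beside 19.4% and 12.6% of all genes) and 5 rose and 9 fell in elongating cells (18.5% and 33.3%, beside 27.3% and 27.7%). With total-read scaling 2 rose and 19 fell in elongating cells (70.4% fell, beside 62.8% of all genes). Slc31a1, the copper importer CTR1, measured 135 and 147 in WT and 219 and 234 in KO-labelled round spermatids, and 148 and 183 in WT and 130 and 111 in KO-labelled elongating spermatids. The KO-labelled libraries were the higher ones in round and the lower ones in elongating cells. It rose by 0.68 (adjusted p = 0.00096) in round and fell by 0.45 (adjusted p = 0.0085) in elongating cells, and the difference was -1.13 (adjusted p = 0.00017). The elongating call was lost without WT library 2 or KO-labelled library 2 (adjusted p = 0.11 and 0.053).

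The zinc carriers moved in both directions. Slc30a4 rose in elongating cells to 13746 and 13562 (log2 fold change 0.69, adjusted p = 2.8e-09). In round cells it measured 670 ± 14 and 600 ± 29.8 (-0.16, adjusted p = 0.010, lost without WT library 1 or KO-labelled library 1 at 0.092 and 0.093). The difference of 0.85 had an adjusted p of 5.2e-08. Slc39a4, the zinc importer ZIP4, rose in elongating cells from 143 and 131 to 293 and 256 (0.99, adjusted p = 0.00034), and Slc39a10 (ZIP10) fell there from 623 and 649 to 339 and 349 (-0.88, adjusted p = 2.7e-09). Slc39a10 also fell in round cells, from 1529 ± 4.76 to 1276 ± 23.3 (-0.26, adjusted p = 0.0019). Slc30a6 rose in round cells from 84.3 ± 10.4 to 155 ± 0.998 (0.88, adjusted p = 0.0065, lost without WT library 2 or either KO-labelled library at 0.082, 0.054 and 0.053). Slc11a1, an iron and manganese transporter gene of macrophages, was at 4.69 and 9.49 in round and 47.9 and 28.7 in elongating WT and KO-labelled libraries and passed at neither stage (adjusted p = 0.14 and 0.15). Of the 12 macrophage markers, 6 rose and 0 fell in round KO-labelled cells, beside 19.4% and 12.6% of all genes. In elongating KO-labelled cells 1 rose and 11 fell, beside 27.3% and 27.7%. The part of these markers in the values of Slc11a1 and the zinc carriers was not tested.

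Nucleotide-sugar transporters supply the Golgi and the endoplasmic reticulum with activated sugars, and were grouped with nucleoside transporters. Genes of this group fell more often than they rose in elongating cells: 10 of 26 fell and 1 rose (38.5% and 3.85%), compared with 27.7% and 27.3% of all genes. With total-read scaling 18 fell (69.2%, beside 62.8% of all genes) and 0 rose (8.89% of all genes). The count is a description and was not tested against other genes. Slc35b1, the ATP/ADP exchanger of the endoplasmic reticulum, measured 205 and 185 (WT) and 205 and 194 (KO-labelled) in round cells, then 106 and 77.9 (WT) and 40.7 and 22.6 (KO-labelled) in elongating cells. The round values overlapped and the elongating ones did not. It fell in elongating cells (log2 fold change -1.55, SE 0.22, adjusted p = 2.8e-05), did not pass in round cells (0.03, adjusted p = 0.93), and the effects differed by -1.58 (adjusted p = 0.00094). Slc35g3 fell in elongating cells from 1024 and 973 to 723 and 705 (-0.48, adjusted p = 2.7e-06), and the UDP-GlcNAc transporter gene Slc35a3 fell from 95.5 ± 5.64 to 63.2 ± 9.38 (-0.59, adjusted p = 0.00098). Slc29a1, the equilibrative nucleoside transporter ENT1, fell from 446 and 485 to 324 and 324 (-0.52, adjusted p = 1.7e-05). In round cells 2 of the 26 rose and 3 fell (7.69% and 11.5%), beside 19.4% and 12.6% of all genes. Slc28a1, a concentrative nucleoside transporter gene, rose there from 22.3 and 21.8 to 51.5 and 52.4 (1.20, adjusted p = 0.0068, lost without KO-labelled library 2 at 0.056).

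Of 45 transporters of organic ions, vitamins, lipids and other solutes, 5 rose and 7 fell in round (11.1% and 15.6%, beside 19.4% and 12.6% of all genes) and 7 rose and 14 fell in elongating cells (15.6% and 31.1%, beside 27.3% and 27.7%). With total-read scaling 0 rose and 29 fell in elongating cells (64.4% fell, beside 62.8% of all genes). Slc22a14 measured 4852 and 4813 in WT and 5402 and 5531 in KO-labelled round spermatids, and 2643 and 2658 in WT and 2238 and 2241 in KO-labelled elongating spermatids. The KO-labelled libraries were above WT in round and below WT in elongating cells, by small amounts (log2 fold change 0.18 and -0.24, adjusted p = 0.0012 and 3.2e-05). The round call of Slc22a14 was lost with total-read scaling (adjusted p = 0.060). Slc22a16 went the same way, with 2789 ± 51.1 and 3263 ± 63.3 in round and 1707 ± 42.9 and 1557 ± 19.1 in elongating cells (0.23 and -0.13, adjusted p = 0.00067 and 0.014). Its elongating call was lost without WT library 1 (adjusted p = 0.099). The effects differed between the stages by -0.42 for Slc22a14 and -0.36 for Slc22a16 (adjusted p = 7.8e-06 and 0.00018). Summed acrosome-phase markers went from 18976 to 19042 in WT to 21531 to 21908 in KO-labelled round cells, and were 14813 to 15091 and 14588 to 14833 in elongating cells. Their part in the values of Slc22a14, Slc22a16 and Slc26a8 was not tested.

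Slc14a2, a urea transporter gene, fell at both stages, from 532 ± 16.2 to 363 ± 15.9 and from 723 ± 24.6 to 508 ± 16.9 (log2 fold change -0.55 and -0.51). Slc10a6 rose in elongating cells from 83.8 and 76.4 to 206 and 226 (1.42, adjusted p = 0.0040), a call lost with total-read scaling (0.057). Slc22a7, an organic anion transporter gene, fell there from 72.2 and 73.5 to 34.9 and 26.4 (-1.24, adjusted p = 0.0031), and Slc19a2, a thiamine transporter gene, from 63.2 and 67.8 to 29.1 and 49 (-0.78, adjusted p = 0.0038). Slc44a2, a choline transporter-like gene, fell in round cells from 64.9 and 77.5 to 43.9 and 48.5 (-0.61, adjusted p = 0.0034, lost without WT library 2 at 0.058). Slc10a3 fell in round cells from 108 and 94.4 to 37.5 and 41.1 (-1.34, adjusted p = 0.025), a call lost without any 1 of the 4 round libraries (adjusted p from 0.093 to 0.15). Slc10a3 shares exons with Ubl4a, which measured 10.2 and 10.9 in WT and 5.09 and 11.3 in KO-labelled round cells.

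Across the stages, 45 solute carriers passed the test at both: 11 rose at both, 19 fell at both, 10 rose in round and fell in elongating cells, and 5 did the reverse. The 11 that rose at both were 31.4% of the round and 25.6% of the elongating rises, compared with 62.8% and 44.7% over all genes. The 19 that fell at both were 54.3% and 25.7%, compared with 50.4% and 22.9%. The 10 that rose in round and fell in elongating cells were 28.6% of the round rises and 13.5% of the elongating falls, compared with 14% and 9.77% over all genes. The 5 that did the reverse were 14.3% of the round falls and 11.6% of the elongating rises, compared with 17.4% and 8.04%. These contrasts share no library but share 1 estimate of the spread. The KO-label effect itself differed between the stages for 66 solute carriers, 26 with a higher and 40 with a lower value in elongating cells, compared with 19.3% and 17.5% of all genes, or 36.9% in either direction. Of these, 6 were higher and 9 lower by over 2-fold, beside 2.75% and 4.55% of all genes. The split with total-read scaling was 6 and 106 (2.33% and 41.1%), beside 5.47% and 45.1% of all genes. Of the 12 X-linked solute carriers, 1 rose and 1 fell in round KO-labelled cells (8.33% each), beside 19.4% and 12.6% of all genes. In elongating KO-labelled cells 2 rose and 2 fell (16.7% each), beside 27.3% and 27.7%.

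**Figure D5:**
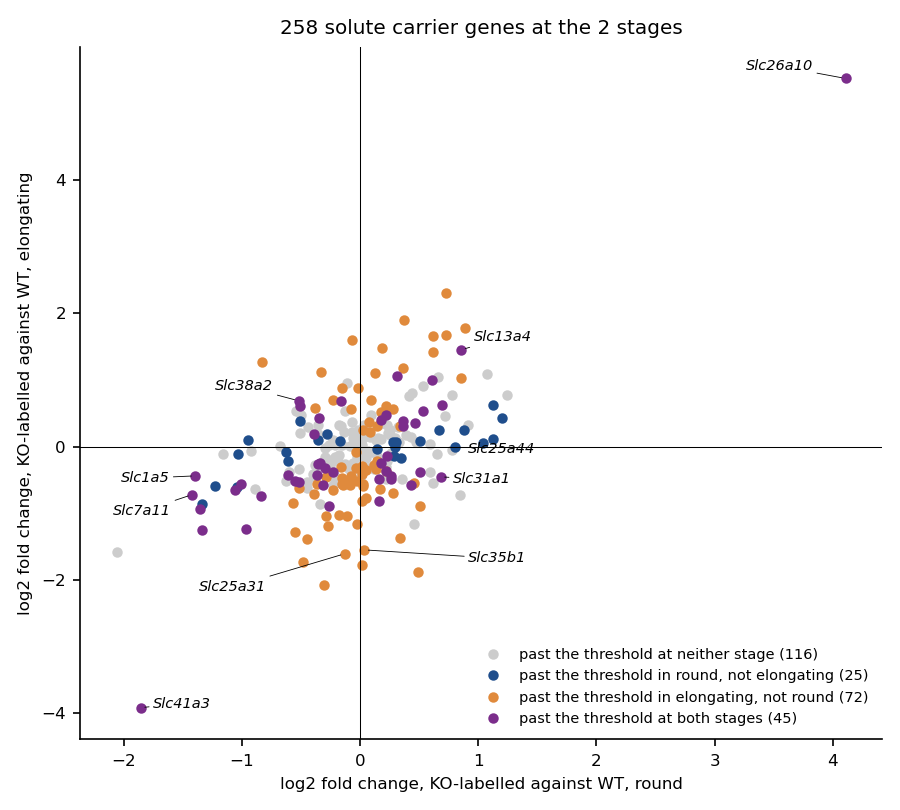
Log2 fold change of KO-labelled against WT libraries in round (x axis) and elongating (y axis) spermatids for the 258 solute carrier genes, coloured by whether the adjusted p was under 0.05. Slc26a10 lies alone at the upper right (4.11, 5.53) and Slc41a3 at the lower left (-1.86, -3.91). In all, 45 genes passed at both stages and 116 at neither.

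Among 47 other membrane transport genes (pumps, organic anion transporters of the Slco family, Mfsd genes and transporter chaperones), 12 rose and 4 fell in round and 11 rose and 19 fell in elongating cells (25.5%, 8.51%, 23.4% and 40.4%). Over all genes the shares were 19.4%, 12.6%, 27.3% and 27.7% in the same order. Atp1a4, the sodium pump subunit of sperm, rose from 7872 ± 218 to 9736 ± 142 in round and from 52640 ± 204 to 124402 ± 851 in elongating cells (log2 fold change 0.31 and 1.24). Slco3a1 fell from 1151 ± 25.8 to 437 ± 5.30 and from 478 ± 3.52 to 173 ± 16.8 (-1.39 and -1.47). Of the mitochondrial pyruvate carrier, Mpc1 fell in elongating cells from 52.7 ± 7.06 to 23.9 ± 4.54 (-1.11, adjusted p = 8.5e-05). Mpc2 rose by 0.42 in round cells. In elongating cells its value was 0.31, which turned to -0.25 with total-read scaling. Bsg, the chaperone of the monocarboxylate transporters, measured 4810 ± 128 and 5242 ± 58.3 in round and 4875 ± 114 and 4559 ± 53.5 in elongating WT and KO-labelled libraries.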

How the data were processed

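RNA was sequenced from purified mouse spermatids in 4 groups of 2 libraries. The values are normalised read counts per gene, a signal that the authors deposited after size-factor normalisation with DESeq. Per the submitters' processing notes, the tools were TopHat2 2.0.10, HTSeq 0.6.0, DESeq 1.16.0 and CASAVA 1.8.2, and the builds mm10 and GRCm38. The sources used here do not give their roles or settings. Divided by the lowest value above 0 in their own library, 100% of values came out as whole reads at a tolerance of 1e-06.

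Genes that reached 10 in 2 or more of the 8 libraries were tested with limma 3.58.1 (trend) in R 4.3.3 on log2(value + 1), fitted as 4 group means, which leaves 4 residual degrees of freedom. Benjamini-Hochberg adjustment ran over all 15685 genes. Such fold changes understate those of low genes. edgeR 4.0.16 and DESeq2 1.42.0 on the recovered reads, other scalings, pseudocounts and filters, a replicate block, fits on the 4 libraries of a contrast, and leaving out each library were alternatives. The fit was tested on simulated data with the same spread setting for every gene, so that run does not show its accuracy on these libraries. Its pass limits for 2-fold changes were loosened after its first result. Tables and motif counts were made with Python 3.11.15 and pandas 2.3.3, near-identical copies were sought with BLAST 2.17.0, and positions come from GENCODE M21.

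Depth limits low genes: with few reads only large differences can be detected. Replicate libraries differed by more than counting error, with a chi-square per gene of 1.37 to 2.31.

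The genes and lists were chosen with earlier results of these data known. Genes named with full values were Slc26a10, Slc41a3, carriers with a known place in sperm, the 8 largest rises and falls of each knockout comparison and the 5 of the stage comparison (called, libraries not overlapping, higher group mean at least 50), and the 5 highest per kb at each stage. Other genes were named from those that kept their call in every alternative, or for their known role, after their values were seen.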

Additional observations from a re-analysis of the deposited data

Results flagged for a closer look

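By the rule for genes named with full values, 51 genes were examined, and for 27 of them the KO-label effect differed between the stages by the test of that difference (limma, adjusted p under 0.05). Over all genes tested 36.9% had such a difference. The 51 include genes picked for large effects at 1 stage in these same data, so the 27 cannot be set against that share. Values are the effect in elongating minus that in round cells, on the log2 scale. Among mitochondrial carriers it was higher in elongating cells for Slc25a39 (0.22) and Slc25a47 (1.30), and lower for Slc25a2 (-0.52), Slc25a31 (-1.47), Slc25a44 (-0.81) and Slc25a54 (-0.92). Among amino acid transporters it was 0.96 for Slc1a5, 1.21 for Slc38a2, 1.45 for Slc6a11, 0.98 for Slc7a2 and -0.97 for Slc6a6. Among sugar and carboxylate transporters it was 0.60 for Slc13a4, 0.90 for Slc16a1 and -0.18 for Slc16a7.

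Among ion carriers the difference was 0.75 for Slc20a1, 1.42 for Slc26a10, 0.19 for Slc8a2 and -0.48 for Slc26a8. The metal carriers gave 0.85 for Slc30a4, -1.13 for Slc31a1, -0.62 for Slc39a10 and -2.06 for Slc41a3. Slc35b1 (-1.58), Slc35g3 (-0.65), Slc22a14 (-0.42), Slc22a16 (-0.36) and Slc19a2 (-0.83) were lower in elongating cells. The differences of Slc19a2, Slc26a10, Slc6a11, Slc7a2 and Slc8a2 no longer passed when single libraries were left out. With total-read scaling those of Slc13a4 (adjusted p = 0.47), Slc16a1 (0.062), Slc1a5 (0.054), Slc26a10 (0.20), Slc6a11 (0.076) and Slc7a2 (0.23) did not pass either. Other genes named in the text, such as Slc9a5, Slc25a3, Slc29a1 and Slc7a5, also had a difference that passed, in every alternative tried.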

How the results depend on the processing

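In round cells 23 solute carriers rose with total-read scaling and 23 with library sizes that leave out the 50 most abundant genes (8.91% each). Of all genes, 14% and 13.9% rose. In elongating cells, under the same scalings, 8 and 11 rose (3.1% and 4.26%) and 154 and 148 fell (59.7% and 57.4%). Of all genes, 8.89% and 10.6% rose and 62.8% and 59.2% fell. With DESeq2 28 rose and 38 fell (10.9% and 14.7%), beside 23.3% and 17.6% of all genes. With stage, under these scalings, 51 and 62 rose (19.8% and 24%) and 170 and 151 fell (65.9% and 58.5%). Of all genes, 19.6% and 25% rose and 68.8% and 61.4% fell. The KO-label effect differed between stages for 112 and 104. Without the 50 most abundant genes 3.49% were higher and 36.8% lower in elongating cells, beside 6.82% and 40.5% of all genes. With each library left out in turn, 17 to 43 rose and 20 to 40 fell in round cells, 29 to 39 rose and 51 to 66 fell in elongating cells, 98 to 111 rose and 74 to 89 fell with stage, and 49 to 73 differed between stages. In elongating cells the median of all genes moved from -0.07 to -0.61 and -0.55.

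Log2 values whose sign turned with total reads, then without the top 50, were as follows. With stage, Slc14a2 gave -1.02 and -0.58, Slc16a1 -0.94 and -0.50, Slc16a7 -1.13 and -0.68, Slc20a1 -0.81 and -0.36, Slc22a17 -1.04 and -0.60, Slc25a11 -1.40 and -0.96, Slc31a1 -1.23 and -0.79, Slc38a2 -0.85 and -0.41, Slc41a3 -0.96 and -0.52, and Slc8a2 -0.49 and -0.045. With total reads alone, Slc13a4 gave -0.084, Slc25a23 -0.40, Slc25a47 -0.27, Slc26a10 -0.19 and Slc7a2 -0.90. In elongating KO-labelled cells Slc25a39 gave -0.17 and -0.11, Slc7a4 -0.46 and -0.40, and Slc9a8 -0.49 and -0.42. For the difference between stages, Slc14a2 gave -0.43 and -0.37, Slc25a39 -0.25 and -0.19, and Slc8a2 -0.28 and -0.22. The cause was not tested.

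Same-numbered libraries did not deviate together (r from -0.09 to 0.03). With 2 libraries in a group this check cannot tell whether the numbers pair them. With the replicate block 33 rose and 34 fell in round cells, 39 and 71 in elongating cells, 110 and 82 with stage, and 66 differed between stages.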
